A study of Mus musculus with 9 samples.

Results

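RNA of 9 genes that make, carry or sense lactate and pyruvate was measured in mouse muscle and in muscle cells in culture. The genes were chosen by name for their known function, with earlier results of these data known. Their symbols were matched to the Ensembl identifiers of the count tables. All 9 were found among the 46078 genes listed for cultured cells and the 38293 listed for muscle. They encode the lactate dehydrogenase subunits Ldha and Ldhb, the D-lactate dehydrogenase Ldhd, the monocarboxylate transporters Slc16a1 (MCT1) and Slc16a3 (MCT4), their partner protein Bsg, the mitochondrial pyruvate carrier subunits Mpc1 and Mpc2, and the lactate receptor Hcar1.

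The study asked how lactate relates to a lactyl mark on histone H3 and to gene expression in cells of differing metabolism, and 9 of its RNA libraries are described here. All came from C57BL/6 mice. GAS was whole gastrocnemius muscle of 3 biological replicates, from female C57Bl6/J mice 8 to 12 weeks old per the study's methods, and was sequenced from poly(A) RNA. MB were primary myoblasts, the precursors of muscle fibers, grown on Matrigel with basic FGF (10 ng/ml), 20% FBS and 10% horse serum (n = 2). MT were myotubes that formed from such cells within 3 days in a medium with 2% horse serum (n = 2). Lactate-treated MB received 10 mM sodium-L-lactate in PBS (n = 2), whereas the other cultures received PBS alone. Libraries of cultured cells were made with Smart-seq2, a PCR-based method that copies whole transcripts, from 5 ng of total RNA. How many mice gave rise to the cultures is not given in the sources used here, so the spread between replicates may be that between cultures of the same mouse.

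Lactate dehydrogenase is a tetramer of A and B subunits that interconverts pyruvate and lactate while recycling NADH. Tetramers rich in the A subunit are known from fast, glycolytic muscle, and those rich in the B subunit from heart and slow muscle, which burn lactate. Lactate crosses the plasma membrane with a proton through MCT1, a high-affinity carrier of oxidative and growing cells, or through MCT4, which is typical of glycolytic fibers that release lactate, and both carriers need basigin (Bsg) to reach the membrane. Pyruvate enters mitochondria through a carrier made of MPC1 and MPC2.

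The cultured libraries held 5198247 to 10839516 reads counted on genes and the GAS libraries 19307793 to 19941574, so that 3 counts corresponded to between 0.223 and 0.533 CPM (read counts scaled to library size with TMM factors) in cultured cells and to at most 0.156 CPM in GAS. These limits cover counting error only. The labelled cell types were checked with marker genes. Pax7, Myf5 and Myod1 summed to 757 to 1236 CPM in control MB and to 161 and 387 CPM in MT. The differentiation markers Myog, Mymk, Myh3, Ckm and Acta1 summed to 89.4 and 194 CPM in control MB and to 9689 and 11718 CPM in MT, and the fast myosin genes Myh1, Myh2 and Myh4 to between 65403 and 71631 CPM in GAS. MT replicate 1 stood apart, with reads on many genes that had none in the other cultured libraries, such as 103 counts of Slc5a12.

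Sequences upstream of 4 of the genes are shown because these genes are the pairs whose balance is described below, A against B subunit and MCT1 against MCT4. RefSeq promoter windows of assembly GRCm38.p6 matched 8 of the 9 genes. Each window is the 250 bases before an annotated start, 5′ to 3′ on the strand of the gene. Capitals mark ACGTG on either strand, the core of the element bound by hypoxia-inducible factors, which also lies inside the E-box CACGTG bound by the Myc and ChREBP families. A palindromic CACGTG was counted as 1 place.
Ldha, chr7:46845554-46845803, plus strand: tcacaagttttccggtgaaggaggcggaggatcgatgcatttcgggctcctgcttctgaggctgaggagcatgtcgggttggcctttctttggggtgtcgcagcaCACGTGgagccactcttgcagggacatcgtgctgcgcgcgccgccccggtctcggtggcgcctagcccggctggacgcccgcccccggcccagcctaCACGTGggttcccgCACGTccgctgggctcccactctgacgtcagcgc
Ldhb, chr6:142507958-142508207, minus strand: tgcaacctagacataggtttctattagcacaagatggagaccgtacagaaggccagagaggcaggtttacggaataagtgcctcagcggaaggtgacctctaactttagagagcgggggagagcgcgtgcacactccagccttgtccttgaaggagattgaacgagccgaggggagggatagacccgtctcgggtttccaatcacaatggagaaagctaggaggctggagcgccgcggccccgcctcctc
Slc16a1, chr3:104638414-104638663, plus strand: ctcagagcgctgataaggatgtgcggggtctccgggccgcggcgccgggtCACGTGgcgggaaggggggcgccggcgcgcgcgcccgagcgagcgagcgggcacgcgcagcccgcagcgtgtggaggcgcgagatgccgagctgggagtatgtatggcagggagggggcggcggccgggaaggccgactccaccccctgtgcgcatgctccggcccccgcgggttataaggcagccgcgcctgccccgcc
Slc16a3, chr11:120948817-120949052, plus strand: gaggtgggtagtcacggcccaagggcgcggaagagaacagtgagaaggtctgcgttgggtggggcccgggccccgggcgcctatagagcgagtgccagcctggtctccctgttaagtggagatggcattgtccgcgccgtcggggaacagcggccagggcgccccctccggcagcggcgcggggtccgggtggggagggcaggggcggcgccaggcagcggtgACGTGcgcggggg
The Slc16a3 stretch is the first 236 bases of its window and lies, like the Ldha window, in an intron of an annotated transcript of the same gene that starts farther upstream. The last 14 bases, which belong to an exon of another transcript, were left out. ACGTG was found at 3 places in the Ldha window, at 2 in the whole Slc16a3 window, at 1 in that of Slc16a1 and at 0 in that of Ldhb. Among all 32851 RefSeq windows of this length, 16.6% held at least 1 place, 1.95% at least 2 and 0.256% at least 3. A second Ldha window, chr7:46846832-46847081, held none, nor did the windows of Mpc1, Mpc2 and Hcar1, and that of Ldhd held 1. These are matches of letters and not sites of binding.

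**Figure D1:**
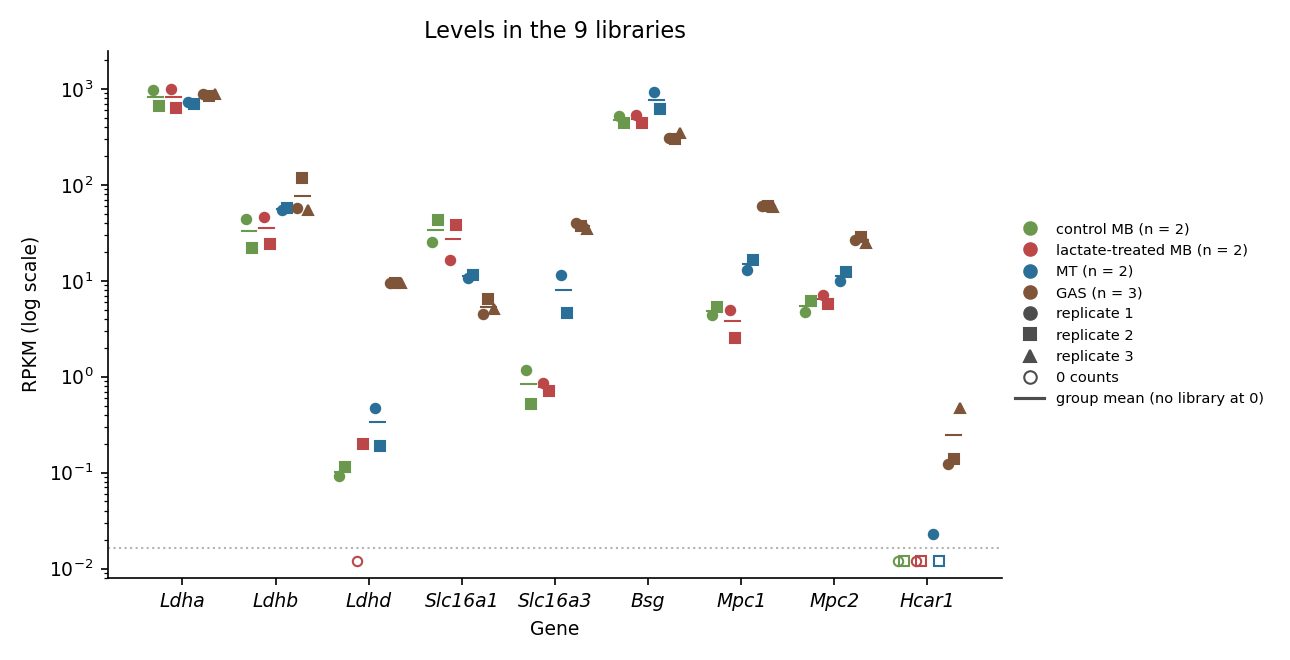
Level of each gene in each library as RPKM on a log scale, with bars for group means where no library was at 0 and open symbols for libraries with 0 counts. Ldha and Bsg lie at the top in every library, Slc16a1 and Slc16a3 exchange places between MB and GAS, and Hcar1 has reads in GAS and in 1 MT library. GAS and cultured cells were normalized separately.

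Ldha (ENSMUSG00000063229, chr7:46841475-46855627, plus strand), the A subunit, was the most abundant of the 9 genes per length in 8 of the 9 libraries, the exception being MT replicate 1, where Bsg was higher. Levels between genes are given as RPKM, CPM divided by the length of the union of exons in kilobases. Ldha had 975 and 657 RPKM in control MB, 1004 and 637 in lactate-treated MB, 727 and 701 in MT, and 879, 837 and 892 in GAS. By group mean it ranked 46th of 18505 genes with counts in MB, 38th of 29014 in MT and 47th of 19415 in GAS. The MT values lay between the 2 MB values, so these groups overlapped. The fitted difference of MT from MB was a log2FC of -0.21 (SE 0.64, edgeR quasi-likelihood test, adjusted p = 0.858), and leaving out MB replicate 1 turned its sign (0.08). Of 13 annotated processed pseudogenes of Ldha, 11 were listed for cultured cells and 10 for GAS, and these took 0.141% to 1.23% of the summed reads, so that few reads were counted there.

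Ldhb (ENSMUSG00000030246, chr6:142490249-142507957, minus strand), the B subunit, was much less abundant. It had 43.7 and 22.0 RPKM in control MB, 46.3 and 24.2 in lactate-treated MB, 54.7 and 57.1 in MT, and 56.8, 118 and 54.9 in GAS. Both MT libraries lay above both MB libraries, but the log2FC of 0.74 (SE 0.48) did not pass (edgeR, adjusted p = 0.317). GAS replicate 2 stood above the other GAS replicates.

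Ldhb made up 6.07%, 12.3% and 5.80% of the summed RPKM of Ldha and Ldhb in the 3 GAS replicates, a mean of 8.07% ± 3.71 (SD, n = 3). The A subunit was thus 15.5-, 7.10- and 16.2-fold more abundant per length than the B subunit. In cultured cells the Ldhb share was 7.00% and 7.53% in MT, 4.29% and 3.24% in control MB, and 4.41% and 3.67% in lactate-treated MB. The size of the share depended on the length used: with raw counts and no length the GAS mean was 4.02%. In GAS replicate 2 the myosin genes Myh1 and Myh2, of type IIX and IIA fibers, were also highest, with 3966 CPM of Myh1 against 2071 and 1410 in the others and 1796 CPM of Myh2 against 795 and 1029. The fast myosin gene Myh4 was far more abundant, with 59641 to 68765 CPM over the GAS replicates. Summed with Myh4, the fast myosin genes were lowest in replicate 2, at 65403 CPM against 71631 and 70293. The slow-fiber markers Myh7, Tnnt1 and Myl2 summed to 670 CPM there, against 582 and 401, and the red blood cell markers Hba-a1, Hba-a2, Hbb-bs, Hbb-bt and Alas2 to 2794, against 5213 and 998. Their part in the Ldhb value was not tested. As everywhere in bulk RNA, fewer cells of a type and less RNA per cell cannot be told apart.

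Ldhd (ENSMUSG00000031958, chr8:111623785-111630374, minus strand), which oxidizes D-lactate in mitochondria, had 9.50, 9.54 and 9.47 RPKM in GAS. In cultured cells it had 34 and 8 counts in MT, 4 and 5 in control MB, and 0 and 6 in lactate-treated MB, and it did not pass edgeR's filter on low counts in either comparison. Ldhd shares 2246 bases of exon with Znrf1 on the opposite strand. Znrf1 had between 20 and 58 counts in the cultured libraries and between 1235 and 1393 in GAS. The handling of strand is not given in the sources used here, so reads of the 2 genes cannot be told apart in the shared part. The other lactate dehydrogenase genes gave almost no reads, with 1 count of the testis subunit gene Ldhc in 1 lactate-treated library, 0 counts in the other 8, and 0 counts of Ldhal6b in every cultured library.

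**Figure D2:**
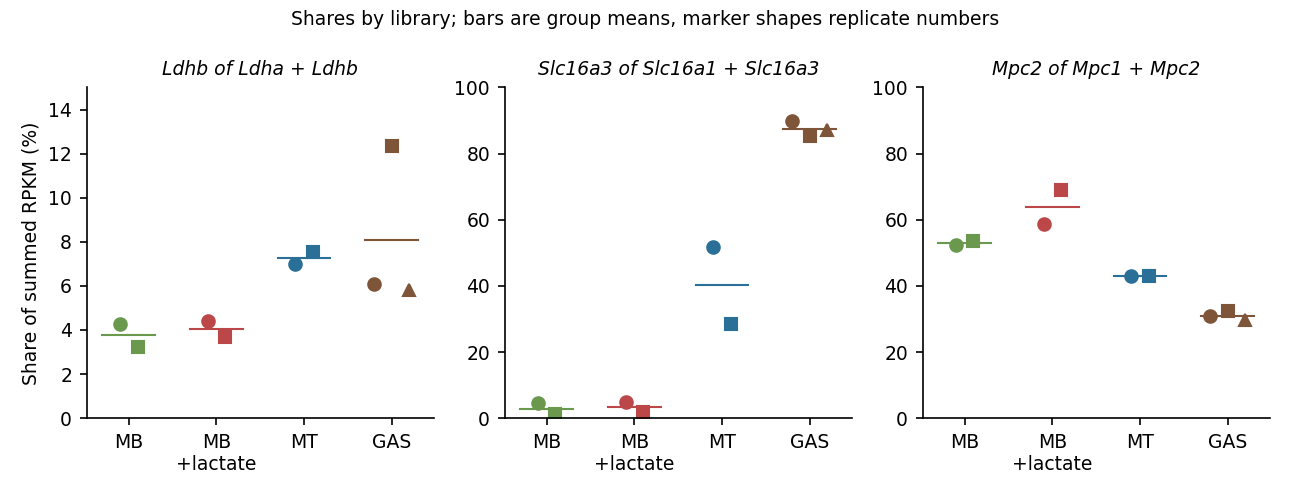
Share of one member of each pair in the summed RPKM of the pair, in percent, for each library, with bars for group means (n = 2 for MB, lactate-treated MB and MT, n = 3 for GAS). Slc16a3 goes from at most 4.94% in MB to at least 85.4% in GAS, Ldhb stays at or below 12.3%, and the axis of the left panel is expanded.

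The plasma membrane carriers were the genes of the set that passed the test between MB and MT, in opposite directions. Slc16a1 (ENSMUSG00000032902, chr3:104638668-104658462, plus strand), the MCT1 gene, had 25.1 and 42.8 RPKM in control MB, 10.75 and 11.6 in MT, and 4.53, 6.39 and 5.14 in GAS. Both MT libraries lay below both MB libraries. The gene fell in MT, with a log2FC of -1.59 (SE 0.44, edgeR, adjusted p = 0.0306), which is 3.00-fold lower.

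Slc16a3 (ENSMUSG00000025161, chr11:120948480-120960868, plus strand), the MCT4 gene, had 1.18 and 0.521 RPKM in control MB, 11.6 and 4.62 in MT, and 40.1, 37.5 and 34.6 in GAS. These were 51 and 23 reads in the MB libraries and 828 and 193 in the MT libraries. The gene rose in MT, with a log2FC of 3.26 (SE 0.69, edgeR, adjusted p = 0.00972), which is 9.59-fold higher, although the MT replicates themselves lay far apart.

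Of the 7 genes that could be tested, Slc16a3 was called higher and Slc16a1 lower. Among all 12921 genes tested in MT against MB, 17.9% were called at an adjusted p under 0.05 and an absolute log2FC over 0.5, 11% as higher and 6.86% as lower. With 1 call each way among 7 genes, the set did not stand out from that background in number. Its median log2FC was 0.74, against 0.07 over all genes tested. That median is the value of Ldhb, which did not pass, in a set that ran from -1.59 to 3.26. In 6 of the 7 genes the MT and MB groups did not overlap, Ldha being the exception, but this was also true of 62.1% of all genes tested. The call of Slc16a1 was lost when MT replicate 1, MT replicate 2 or MB replicate 2 was left out (edgeR, adjusted p = 0.253, 0.0894 and 0.0552) and in a fit of all 6 cultured libraries (0.0532), with a log2FC between -1.98 and -1.33 throughout. That of Slc16a3 was lost without MT replicate 1 (log2FC 2.34, adjusted p = 0.0607).

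**Figure D3:**
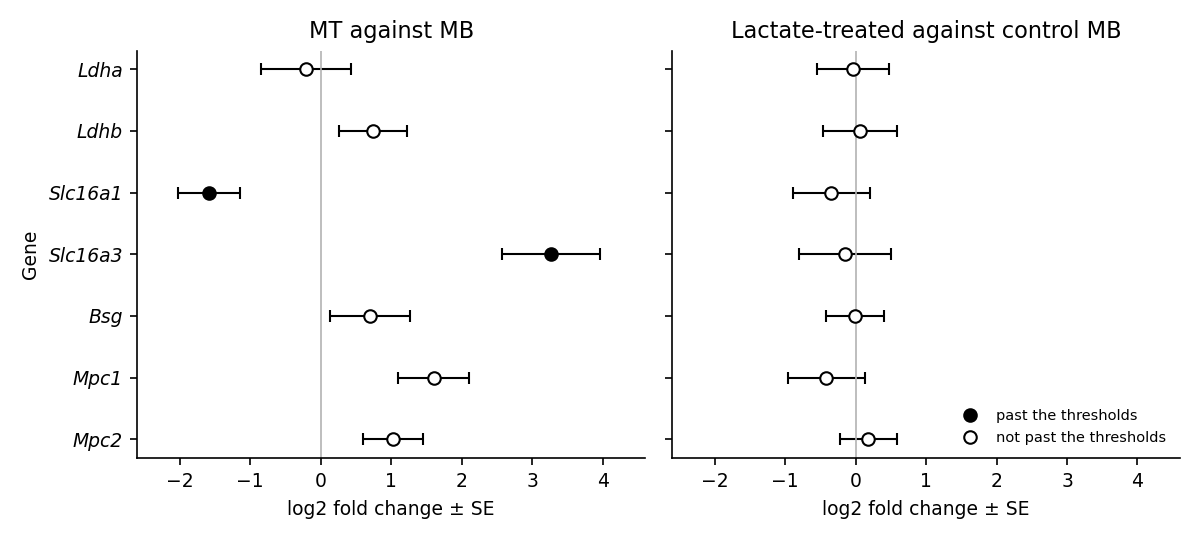
Fitted log2 fold change of the 7 tested genes, with bars of 1 SE, for MT against MB (left) and lactate-treated against control MB (right), 2 libraries per group. Filled points passed the thresholds: Slc16a1 at -1.59 and Slc16a3 at 3.26 in MT, and none with lactate.

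In RPKM, MCT4 made up 4.47% and 1.20% of the summed MCT1 and MCT4 RNA in control MB, 51.9% and 28.5% in MT, and 89.8%, 85.4% and 87.1% in GAS. The ratio of Slc16a1 to Slc16a3 was 21.4 and 82.2 in control MB and 0.927 and 2.51 in MT. In GAS the ratio of Slc16a3 to Slc16a1 was 8.85, 5.87 and 6.75. The sum of both carriers was 26.3 and 43.4 RPKM in control MB, 22.3 and 16.2 in MT, and 44.6, 43.9 and 39.8 in GAS. GAS and cultured cells were prepared by different protocols and normalized separately, so their levels stand side by side without a test.

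Other values moved along with these genes. The cycling-cell markers Mki67, Top2a and Ccnb1 summed to 459 and 948 CPM in control MB and to 192 and 135 in MT, with all 3 markers above the limit of detection in each library. Of the 3 markers, 2 were called lower in MT. For Mki67 the groups overlapped, with 30.0 to 124 CPM in control MB and 25.8 to 31.6 in MT. In MB, replicate 2 was the higher library for both Slc16a1 and these markers. The fibroblast markers Col1a1, Pdgfra and Dcn summed to 13530 and 1875 CPM in MT and to 2.57 and 2.17 in control MB, where Dcn had 0 and 2 counts. The MT sums were mostly Col1a1, with 1762 to 13116 CPM. Pdgfra had only 2.54 to 5.66 CPM in MT and 1.45 to 1.59 in control MB. In MT, replicate 1 was the higher library for Slc16a3, for Bsg and for these markers. The part of these cells or states in the results was not tested.

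Bsg (ENSMUSG00000023175, chr10:79704491-79711969, plus strand), the partner that brings both carriers to the membrane, had 517 and 438 RPKM in control MB, 922 and 617 in MT, and 306, 301 and 345 in GAS. It thus exceeded Slc16a1 10.2- to 85.8-fold and Slc16a3 7.63- to 840.0-fold per length over the 9 libraries. Its log2FC in MT was 0.70 (SE 0.57, edgeR, adjusted p = 0.431), and the test did not pass although both MT libraries lay above both MB libraries. The related gene Emb, whose product embigin can also partner MCT proteins, had 567 and 146 counts in MT, 71 and 138 in control MB, and 18 to 39 in GAS, and did not pass in MT (log2FC 1.32, SE 0.59, adjusted p = 0.152). Bsg was at least 151-fold above Emb per length of the exon union in each library. The fold depended on the length used. In MT replicate 1, Bsg and Emb had 922 and 6.11 RPKM by exon union, and 1096 and 14.4 by the longest transcript.

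Among the other SLC16 genes, Slc16a10, which encodes an aromatic amino acid transporter, had 53.1 to 67.5 CPM in GAS and at most 3.72 CPM in cultured cells. Slc16a7, the MCT2 gene, had 2 to 20 counts in GAS, 2 and 0 in MT, and 0 in the 4 MB libraries. Of the other lactate and pyruvate carriers, the sodium-coupled Slc5a8 had at most 14 counts in any library.

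Mpc1 (ENSMUSG00000023861, chr17:8282904-8297661, plus strand) and Mpc2 (ENSMUSG00000026568, chr1:165460637-165481214, plus strand) had their highest levels in GAS. Mpc1 had 4.36 and 5.38 RPKM in control MB, 13.1 and 16.5 in MT, and 60.1, 59.8 and 58.8 in GAS. Mpc2 had 4.77 and 6.20 RPKM in control MB, 9.90 and 12.4 in MT, and 26.8, 28.8 and 24.9 in GAS. For both genes the MT libraries lay above the MB libraries.

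The log2FC in MT was 1.60 for Mpc1 (SE 0.50, edgeR, adjusted p = 0.0504) and 1.03 for Mpc2 (SE 0.42, adjusted p = 0.122), and neither passed the threshold. Mpc1 lay at the threshold itself: over the alternative fits its adjusted p ranged from 0.0195 to 0.214, and it passed in 6 of 14. Mpc2 made up 52.3% and 53.5% of the summed RPKM of the pair in control MB, 43.1% and 43.0% in MT, and 30.8%, 32.5% and 29.7% in GAS. Which subunit was the larger in GAS depended on the length used, since the mean Mpc2 share there was 31.0% per length of the exon union and 61.3% from raw counts.

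Reads like those of Mpc1 were also counted on a copy of the gene. The processed pseudogene Mpc1-ps on chromosome 12 shares a run of 289 identical bases with the Mpc1 transcript Mpc1-208, all of them coding in Mpc1. The run is printed because a read that lies within it cannot be assigned to either gene by its sequence. Capitals mark the 3 bases on each side of the 4 exon junctions of Mpc1-208 in the run, and at 2 of these junctions, which are 4 bases apart, the capitals join. The sequence is that of the GENCODE M21 transcripts, on assembly GRCm38.
Mpc1-ps, chr12:110858565-110858853, minus strand: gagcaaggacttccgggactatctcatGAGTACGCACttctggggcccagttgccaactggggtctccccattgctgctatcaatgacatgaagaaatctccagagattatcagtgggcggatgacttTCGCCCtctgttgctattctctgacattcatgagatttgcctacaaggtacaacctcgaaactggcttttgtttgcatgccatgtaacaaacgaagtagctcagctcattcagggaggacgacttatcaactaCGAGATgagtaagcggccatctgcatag
Reads counted on Mpc1-ps numbered 64 and 63 in control MB against 74 and 93 on Mpc1, 306 and 212 in MT against 366 and 270, and 2078, 2021 and 2057 in GAS against 2465, 2458 and 2360. Of 2 further annotated copies, 1 was listed and had at most 2 reads in a library, and the listed copies took 40.4% to 48.3% of the sum in every library. When reads of the copies were added to Mpc1, a fit chosen after seeing the data, the log2FC in MT was 1.64 (SE 0.46) and passed (edgeR, adjusted p = 0.0323), and the mean Mpc2 share in GAS went from 31.0% to 19.6%. Mpc1 also overlaps an antisense transcript, 4930506C21Rik, by 480 bases of exon.

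**Figure D4:**
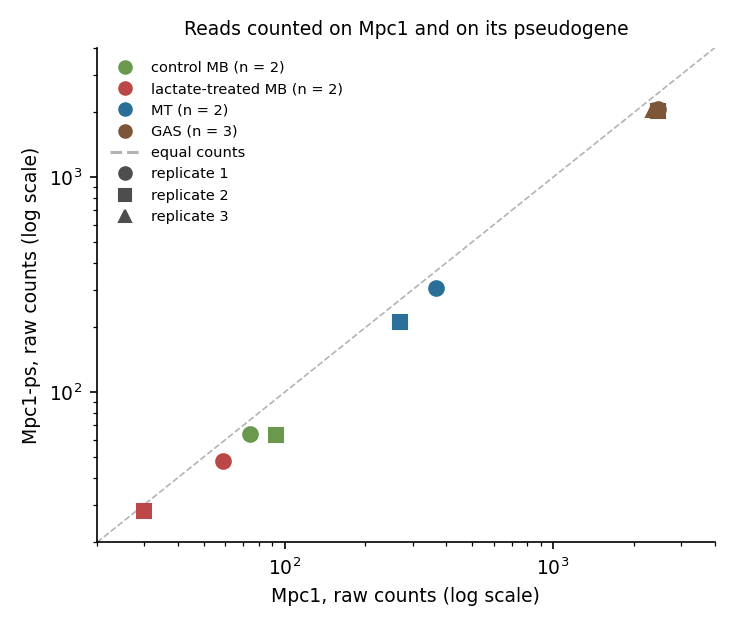
Raw counts of Mpc1 (horizontal) and of its pseudogene Mpc1-ps (vertical) in each of the 9 libraries, both on log scales, with a dashed line at equal counts and marker shapes for replicate numbers. All libraries lie just below the line, from 30 and 28 counts in lactate-treated MB replicate 2 to 2465 and 2078 in GAS replicate 1.

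Hcar1 (ENSMUSG00000049241, chr5:123876736-123880020, minus strand), the G protein-coupled receptor for lactate that is best known from adipocytes, had 8, 9 and 30 counts in GAS, 1 and 0 in MT, and 0 in all 4 MB libraries. A count of 0 allowed a level of up to 0.368 and 0.362 CPM in control MB and 0.527 and 0.533 CPM in lactate-treated MB. The adipocyte markers Adipoq, Plin1, Cidec and Lep summed to 19.9, 26.3 and 41.4 CPM in the GAS replicates, of which the third was highest for Hcar1 too, and all 4 markers were at 0 in the MB libraries. Their part in the Hcar1 reads was not tested.

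The genes around these steps were read from lists of named genes. Of 12 genes that govern pyruvate entry into mitochondrial metabolism, all were tested, 2 were called higher in MT and 0 lower, a share close to the 17.9% called over all genes tested. The called genes were the pyruvate dehydrogenase kinases Pdk1 (log2FC 2.44, SE 0.51, edgeR, adjusted p = 0.00903) and Pdk2 (log2FC 3.36, SE 0.49, adjusted p = 0.00142), which restrain the conversion of pyruvate to acetyl-CoA. Pdk2 had 9.19 and 7.47 CPM in control MB and 78.1 and 94.7 CPM in MT. Subunit genes of the complex did not pass, such as Pdhb at a log2FC of 0.69 (SE 0.42, adjusted p = 0.281).

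Of 9 genes of NADH shuttles, which compete with lactate dehydrogenase for cytosolic NADH, 8 were tested, and Gpd2, the mitochondrial glycerol-3-phosphate dehydrogenase, was called lower (log2FC -1.63, SE 0.42, adjusted p = 0.0223). This 1 call of 8, like that among the regulators named next, does not exceed the 17.9% over all genes. None of the 5 genes of methylglyoxal and D-lactate metabolism tested was called, Haghl being nearest to the threshold (log2FC 1.72, SE 0.55, adjusted p = 0.0527). Of 11 transcription regulators known to act on LDH and MCT genes, 8 were tested and Myc was called lower (log2FC -2.92, SE 0.48, adjusted p = 0.00282). Myc had 245 and 189 CPM in control MB and 33.1 and 24.3 CPM in MT. Hif1a did not pass (log2FC 0.77, SE 0.59, adjusted p = 0.396), with MB libraries at 68.3 and 243 CPM.

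The study treated MB with lactate to see whether genes with a lactylated promoter in MT would respond, and the genes that handle lactate were read from the same libraries. With edgeR's quasi-likelihood test, 0 of the 7 genes tested passed the study's criteria for lactate, a log2FC beyond 0.5 in size at a nominal p under 0.01. The same held for 0% of the 11804 genes tested, of which 5 had a nominal p under 0.05. That is far fewer than p-values would give with no effect at all, so this test was conservative. Its lack of calls therefore does not show a lack of response. The study itself, which used edgeR with these thresholds, described the effect as minimal and reported a small group of genes past them. Those it found upregulated were related to lactate metabolism and muscle contraction. Which of edgeR's tests it used is not stated in its methods. In the fits made here, DESeq2 called 1 gene by the nominal thresholds, which was none of the 9. With the replicate number as a block, 166 genes had a nominal p under 0.05 (edgeR quasi-likelihood test). Of all genes tested, 13 were then called, again none of the 9. The log2FC was -0.03 for Ldha (SE 0.51), 0.06 for Ldhb (SE 0.53), -0.34 for Slc16a1 (SE 0.55), -0.15 for Slc16a3 (SE 0.66), -0.01 for Bsg (SE 0.41), -0.41 for Mpc1 (SE 0.55) and 0.18 for Mpc2 (SE 0.41). All adjusted p were at 1 after rounding. In this fit, which leaves out the replicate number, the SE correspond to factors of 1.33 to 1.58. With the replicate number as a block, the SE ran from 0.19 for Ldha to 0.46 for Slc16a3 on the log2 scale. Slc16a1 then had a log2FC of -0.43 (SE 0.26).

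Taken by replicate number, the 2 sets of cultures started from different levels. Control MB of replicate 1 had more Ldha and Ldhb than those of replicate 2, and less Slc16a1, and the lactate-treated libraries kept this order. Ldha in lactate-treated MB differed from the control of the same number by a log2 ratio of 0.04 in replicate 1 and -0.05 in replicate 2. For Bsg the ratios were 0.03 and 0.03. These are ratios of CPM + 0.5.

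The ratios of Slc16a1 were -0.60 and -0.18, from 25.1 to 16.5 RPKM and from 42.8 to 37.8 RPKM, and those of Ldhb were 0.08 and 0.14. The other 3 tested genes went opposite ways in the replicates, with ratios of -0.41 and 0.37 for Slc16a3, 0.18 and -1.01 for Mpc1, and 0.56 and -0.12 for Mpc2. The Mpc1 ratio of replicate 2 rested on 93 and 30 counts. Over all 11804 genes tested, the middle 90% of ratios lay between -0.86 and 1.11 in replicate 1 and between -0.58 and 0.56 in replicate 2. The ratios of the 7 genes lay within these ranges, except that of Mpc1 in replicate 2. In 3 of the 7 genes the direction was the same in both replicates, against 43.0% of all genes. The labels do not say whether libraries of the same number came from the same mouse or day.

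**Figure D5:**
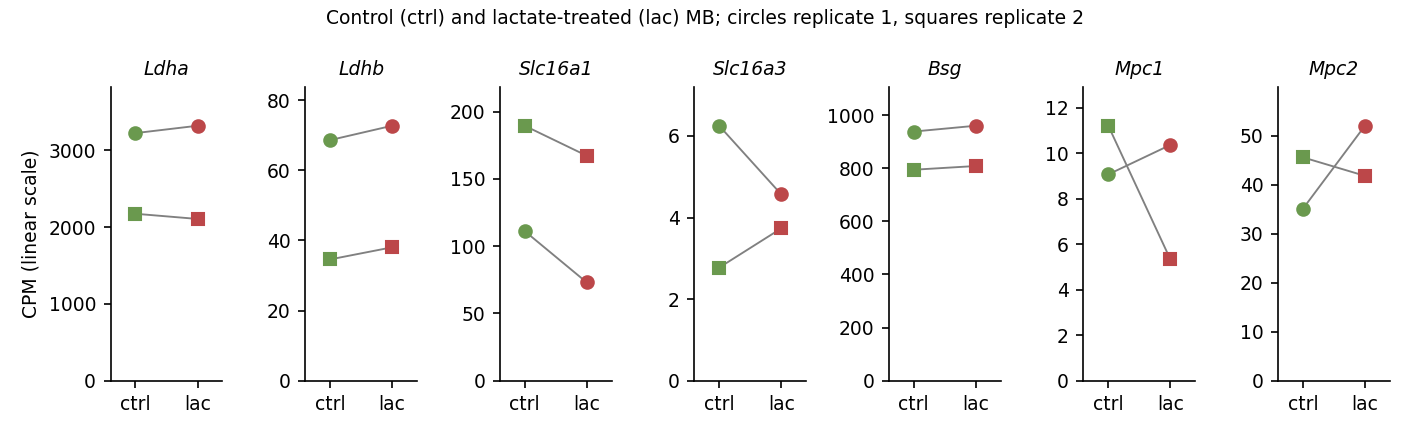
CPM of the 7 tested genes in control and lactate-treated MB on linear axes that start at 0, one panel per gene, with lines joining libraries of the same replicate number. Lines of Slc16a1 go down in both replicates, from 111 to 73.1 and from 190 to 167 CPM, and those of Slc16a3, Mpc1 and Mpc2 slope opposite ways.

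The pathway lists gave no call with lactate either, with 0 of 12 genes of pyruvate entry, 0 of 8 of NADH shuttles, 0 of 4 of methylglyoxal and D-lactate metabolism and 0 of 7 transcription regulators past the nominal thresholds. The 2 control MB libraries served both the lactate comparison and that of MT with MB.

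Over the 6 cultured libraries, the genes whose log2(CPM + 1) followed Ldha most closely among 13049 genes were Tuba1a (Pearson r = 0.996), Cdh24 and Zfp787 (both 0.994). Those closest to Ldhb were Kif1c (0.996), Tmem176b (0.995) and Klc1 (0.992). The correlation of Ldha with Ldhb was 0.480, and that of Ldhb with Slc16a1 was -0.951. With 6 libraries that share 2 replicate numbers and 2 cell stages, these values describe the libraries and carry no test.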

How the data were processed

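RNA sequencing of GAS (n = 3), MB, MT and lactate-treated MB (n = 2 each) was used. The authors trimmed reads with Trim Galore 0.6.6, aligned them to mm10 with HISAT2 2.2.1 and counted them on genes with featureCounts of Subread 2.0.1, per the submitters' processing notes and the study's methods, so that each deposited value is a raw, unnormalized read count of a gene. The annotation release and the handling of strand and of reads with several alignments are not given in the sources used here.

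The 9 genes and the gene lists were chosen with earlier results of these data known. All 9 genes are named, and of the lists those called, up to 4 per list and direction. A list gene that meets this rule is not reported here. Names, coordinates and exon unions came from GENCODE M21 and promoter sequences from RefSeq, both on GRCm38. CPM used TMM factors, for GAS and cultured cells separately, and RPKM divided these by the exon union. Each comparison was fitted on the 4 libraries compared, with edgeR 4.0.16 in R 4.3.3 (filterByExpr, TMM, quasi-likelihood test, Benjamini-Hochberg adjustment over all genes tested), which was tested on simulated data. Thresholds were an absolute log2FC over 0.5 with an adjusted p under 0.05 for MT and a nominal p under 0.01 for lactate. With 2 libraries against 2, an exact permutation test of single genes cannot go below p = 0.333, and none was run. p-values measure the spread between these libraries only. No test was run between GAS and cultured cells, which differ in protocol. Alternatives were RLE size factors, DESeq2 1.42.0, the likelihood ratio test, other filters, the replicate number as a block, all 6 cultured libraries in a joint fit, removal of ribosomal RNA genes, leaving out each replicate and, chosen after seeing the data, crossed numbers and adding reads of pseudogene copies.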

Additional observations from a re-analysis of the deposited data

How the results depend on the processing

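The number of genes called in MT against MB was 2312 and stayed within 1.5 times that number except with at least 10 counts required in every library (1444) and on leaving out a replicate (1232 to 4921, the lowest without MT replicate 1 and the highest without MT replicate 2). Of the 9 genes described, 2 were called, against 1 with the replicate block, 1 in the fit of all 6 cultured libraries and 0 to 2 on leaving out a replicate, and 3, with Mpc1, under DESeq2, the likelihood ratio test, no filter, at least 10 counts and reads of copies added. The replicate block called 2271 genes and put Slc16a1 at a log2FC of -1.56 with an adjusted p of 0.0504 (edgeR), and it changed no other call of the 9 genes. Deviations of libraries with the same number correlated at -0.13 for MT and MB (12921 genes) and at 0.70 for lactate (11804 genes), with 2 pairs each, and the crossed block, chosen after seeing the data, called 2059 genes. With lactate, 0 genes were called by the nominal thresholds, 1 with DESeq2, 1 with no filter on low counts, 13 with the replicate block and 1 to 177 on leaving out a replicate, the highest without MB replicate 2. The replicate block lowered the SE for lactate to between 0.19 (Ldha) and 0.46 (Slc16a3) on the log2 scale, from 0.41 to 0.66, and called none of the 9 genes. Counts with DESeq2 and the likelihood ratio test for MT were 3021 and 3251.

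The sign of the difference turned for Ldha in MT on leaving out a replicate (-0.61 to 0.0782). With lactate, RLE size factors and DESeq2 turned Ldha (0.0322 with each) and Bsg (0.0516 with each), and leaving out a replicate gave -0.34 to 0.37 for Ldha, -0.42 to 0.73 for Ldhb, -1.11 to 0.17 for Slc16a1, -0.62 to 0.63 for Slc16a3 and -0.11 to 0.20 for Bsg. The cause was not tested. The mean Ldhb share in GAS was 4.02% from raw counts with no length, which leaves out the division by exon length, and the mean Mpc2 share was 61.3% from raw counts and 27.5% with the longest transcript. In cultured cells, depth limits statements on Ldhd and Hcar1, which have few or no reads, and in fits without 1 replicate the lone library is assumed to vary like the other group.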
